A study of Homo sapiens with 9 samples.

Results

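Eliglustat at 30 µM was compared with no treatment in HepG2 cells, a human liver cancer line that keeps much of the gene expression of hepatocytes. The comparison used 6 of the 9 RNA-seq libraries of the series, 3 untreated controls and 3 libraries from cells given 30 µM eliglustat for 72 h, chosen by their treatment labels. The remaining 3 libraries, from cells given 20 µM, entered the low-count filter, the scaling and the estimate of the spread between libraries. No contrast with them is reported. All come from this single cell line, and the labels do not state whether replicates were grown as separate cultures; the p-values measure only how far these libraries differ, which may be technical. The study text also names a further incubation after treatment, and how it relates to the time of RNA extraction is not given. Of 62703 genes listed in the count tables, 17623 had enough counts to be tested.

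Eliglustat is a ceramide analogue given by mouth in Gaucher disease. It inhibits glucosylceramide synthase, the product of UGCG, which adds glucose to ceramide and so makes the parent lipid of most glycosphingolipids, gangliosides among them. The hepatocyte secretes most plasma proteins and carries many membrane transporters, and its identity is held by a small set of transcription factors. Transcription factors, secreted factors, transporters and non-coding genes are therefore described family by family below.

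Across all genes tested, 5192 rose (29.5%) and 5515 fell (31.3%) with Benjamini-Hochberg adjusted p under 0.05 in edgeR's quasi-likelihood test, so that 60.8% of genes passed in either direction. A change of at least 1 log2 unit was measured for 1381 genes that rose (7.84%) and 1441 that fell (8.18%). These shares are the background over all gene types. The transcription factor, secreted factor and transporter lists hold protein-coding genes only. Of the 12436 protein-coding genes tested, 36.1% rose, 35.5% fell and 71.7% passed in either direction. By at least 1 log2 unit 8.11% of them rose and 7.33% fell. Counts of those lists and their families are to be read against the protein-coding shares, and a count near them is no trait of its family. Scaling decided part of the balance: with library size alone as the scale, 3530 genes rose and 8022 fell, and the median log2 change of all genes went from -0.04 to -0.25. Changes below are relative to the scaling by trimmed mean of M values. Genes named for the size of their change had to have groups that did not overlap. Statements of no overlap below therefore only describe such genes. Of the 10707 genes that passed, 10330 had groups that did not overlap. Where library size moved the balance of a family, the counts of rising and falling genes by size alone are given beside the main ones.

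The libraries held 21103757 to 26782810 counts in genes. Mitochondrially encoded genes took 3.01 to 4.02% of counts in the controls and 5.23 to 5.90% at 30 µM, and alignments to more than 1 place made up 12.4 to 12.8% of all records in the controls and 14.8 to 19.4% at 30 µM; shares of counts without the mitochondrial genes are given at the end, and the part of the multiple alignments in the results was not tested. All 12 hepatocyte markers listed were tested, of which 5 rose and 5 fell, and their summed level was 33352 to 34364 CPM, counts scaled to the effective library size, in the controls and 41771 to 42134 CPM at 30 µM, a rise whose part in the results was not tested. Of 6 fibroblast and stellate markers 2 were tested, 1 rising and 1 falling, and the sum of the list went from 1239 to 1255 CPM down to 881 to 902 CPM. Of 5 biliary markers 3 were tested, 1 rising and 2 falling, with a sum of 563 to 587 CPM in the controls and 515 to 562 CPM at 30 µM. Of 4 endothelial markers 3 were tested, 1 rising and 2 falling, with sums of 4.49 to 5.54 and 3.96 to 4.83 CPM. A single one of 6 immune markers was tested and it did not pass (sums of 1.15 to 1.62 and 1.20 to 1.71 CPM). The immune markers PTPRC, CD3E and MS4A1, the biliary marker CFTR and the fibroblast marker DCN were at 0 counts in every library compared, and the part of these lists in the results was not tested. In bulk RNA, a change in the share of cells that express a gene and a change of RNA per cell cannot be told apart.

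UGCG, the enzyme that the drug inhibits, was at 22.0, 24.3 and 24.8 CPM in the controls and at 86.8, 85.9 and 93.1 CPM at 30 µM. The groups did not overlap, and the transcript rose by 1.91 ± 0.058 log2 units (SE; adjusted p = 3.74e-24).

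The genes with the steepest rises came from several classes. Beside members of the families below, they were RASD1, a small GTPase (log2 change 4.90), ALPK3, an alpha kinase (4.90), RGCC, a cell cycle regulator (4.73), DUSP5, a phosphatase of ERK (4.50), RBPMS2, an RNA-binding protein (4.48), and CDKN2B, an inhibitor of CDK4 and CDK6 (4.46). ALPK3 went from 0.395, 0.631 and 0.323 CPM in the controls to 14.4, 12.0 and 13.3 CPM at 30 µM. CDKN2B was at 0.681, 0.992 and 0.826 CPM in the controls and at 17.3, 17.5 and 19.7 CPM at 30 µM. All of these genes were low in untreated cells, with control means from 0.372 CPM for RGCC to 2.11 CPM for DUSP5. On the falling side stood MT1G, a metallothionein (log2 change -2.82), NOTCH1, a receptor of cell-to-cell signalling (-2.71), EME1, a subunit of a DNA repair endonuclease (-2.52), and SMTNL2, a smoothelin-like protein (-2.43). NOTCH1 went from 15.2, 17.8 and 16.0 CPM to 2.64, 1.94 and 2.89 CPM, with no overlap. MT1G has near-identical relatives, so the reads given to it are uncertain.

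Transcription factors were examined in 25 families. Of 932 listed, 703 were tested, of which 217 rose and 252 fell. The median log2 change was -0.07 against -0.01 for protein-coding genes. With library size alone the counts were 168 and 374. This near balance hid a split. The zinc-finger genes named ZNF, most of them KRAB repressors, numbered 418 of those tested, of which 69 rose and 171 fell (median -0.17; 41 and 264 by size alone). Among the other 285 factors 148 rose and 81 fell (median 0.25), but 127 and 110 by size alone (median 0.04).

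**Figure D1:**
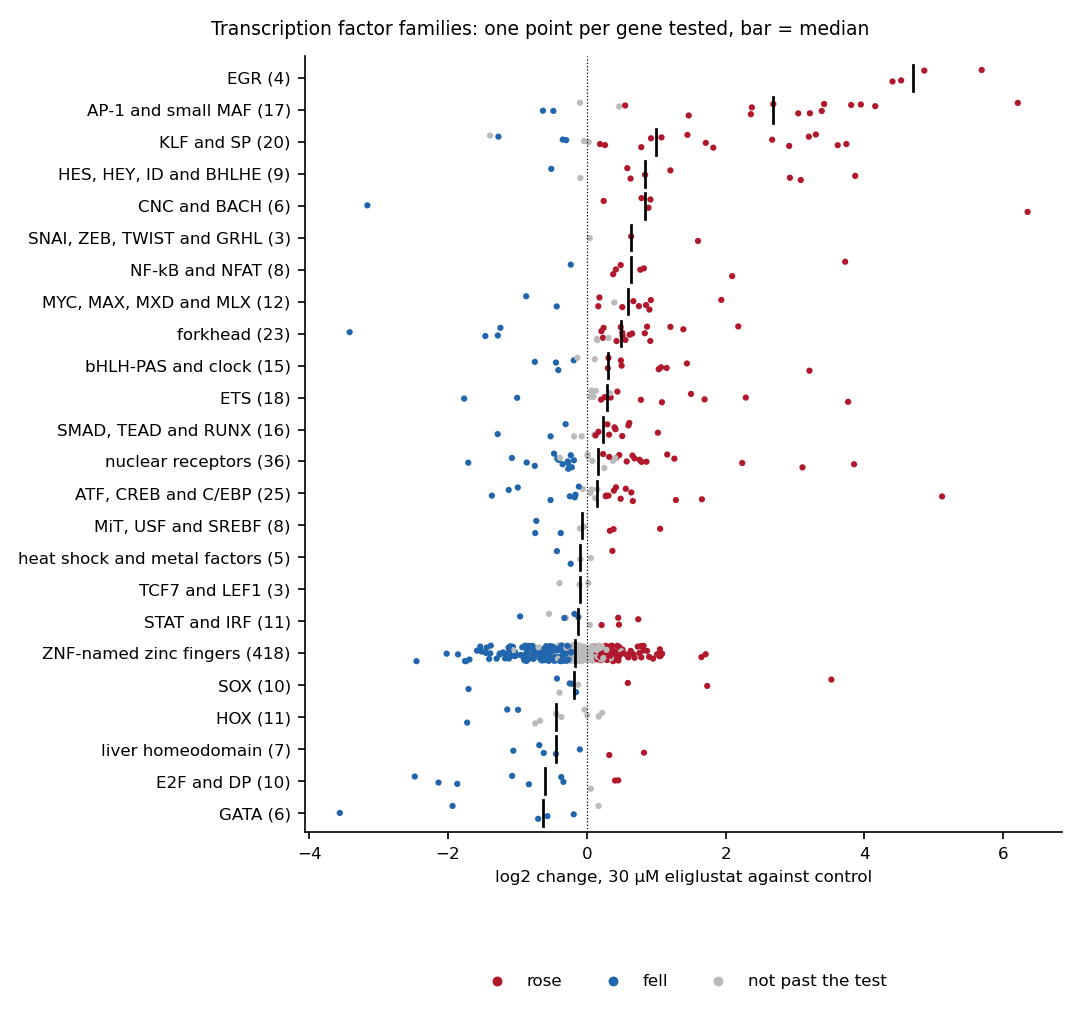
Each point is 1 tested gene, placed by its log2 change at 30 µM against control (x axis) in the row of its transcription factor family (tested genes in parentheses, families with at least 3); red points rose, blue points fell and grey points did not pass the test, and the black bar is the family's median. The EGR and AP-1 rows lie far to the right, the ZNF row lies mostly left of 0, and the GATA, E2F, liver homeodomain and HOX rows have the lowest medians.

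The immediate-early families stood at the top of the rise. AP-1 factors are dimers of FOS, JUN and ATF proteins that are made within minutes of a growth or stress signal. Of 17 AP-1 and small MAF genes tested, 13 rose and 2 fell, with a median log2 change of 2.69. FOS was at 2.94, 2.75 and 2.62 CPM in the controls and 47.7, 49.4 and 51.4 CPM at 30 µM (log2 change 4.16 ± 0.092, adjusted p = 4.98e-28). JUN went from 22.0, 21.5 and 22.3 CPM to 298, 307 and 318 CPM (3.81 ± 0.059). Both lay far above every control in every treated library. ATF3, a stress-induced repressor, rose by 3.95 and JUND by 2.36. BATF2 was the larger of the falls, by 0.63.

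The 4 EGR zinc fingers were all tested and all rose, with log2 changes from 4.40 to 5.69. EGR1, an early growth response factor, was at 37.1, 35.6 and 32.7 CPM in the controls and at 708, 728 and 796 CPM at 30 µM (4.40 ± 0.048, adjusted p = 9.44e-31). EGR3 had the largest change of the family, 5.69, on a control level of 0.0359 to 0.180 CPM. The lowest treated library of each gene was above the highest control.

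The 150 bases before the RefSeq start of EGR1 are shown because they carry copies of the CArG box, the element bound by serum response factor, at which immediate-early genes are known to be switched on (GRCh38.p14, plus strand, chr5:138465329-138465478, CArG boxes in capitals).
EGR1: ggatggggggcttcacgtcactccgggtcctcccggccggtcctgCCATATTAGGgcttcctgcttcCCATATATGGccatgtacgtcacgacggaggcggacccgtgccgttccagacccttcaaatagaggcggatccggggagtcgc
The boxes begin 105 and 83 bases before the start. Both strands were searched, and of 27305 RefSeq promoters 1.14% held a CArG box in the 250 bases before the start. A match is a description of the letters and was not tested as a binding site here.

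The KLF and SP family, zinc fingers of GC-rich promoters, had 14 members that rose and 3 that fell among 20 tested (median 1.00; 12 and 5 by size alone). KLF6, known for its induction by injury, was at 72.3, 80.6 and 75.1 CPM in the controls and 936, 938 and 918 CPM at 30 µM (3.62 ± 0.040, adjusted p = 2.06e-36). KLF5 rose by 3.74 and KLF11 by 3.20, both from under 2 CPM in every control. KLF15, a factor of amino acid and glucose metabolism in liver, fell from 17.3 to 21.2 CPM in the controls to 6.06 to 9.58 CPM (-1.27 ± 0.12). SP5 fell by 0.35.

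Other signal-driven families leaned the same way. Of 8 NF-kB and NFAT genes 7 rose and 1 fell; RELB, a subunit of the non-canonical pathway, went from 1.69, 2.98 and 1.98 CPM to 29.0, 26.6 and 30.5 CPM (3.72 ± 0.13), and NFKB2, its partner, rose by 2.10. Of 9 HES, HEY, ID and BHLHE genes 7 rose and 1 fell. BHLHE40, a repressor tied to the clock and to hypoxia, went from 10.3, 8.74 and 10.8 CPM to 148, 144 and 146 CPM (3.87 ± 0.059, adjusted p = 1.56e-32). Its lowest treated library was far above its highest control. ID2, an inhibitor of basic helix-loop-helix factors, rose by 1.20 and HES4 by 0.84, while HES6 fell by 0.51. Of 18 ETS genes 10 rose and 2 fell (8 and 4 by size alone), led by ETS1 (from 1.47 to 1.69 CPM in the controls to 20.6 to 22.5 CPM, 3.77 ± 0.13), ELF3 (2.29) and ELK3 (1.70). SNAI1 (1.60) and ZEB1 (0.64), repressors of epithelial genes, were 2 of 3 tested in their family, and both rose.

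The MYC network had 9 risers and 2 fallers among 12 tested. MXD1, which competes with MYC for its partner MAX, went from 26.7, 28.0 and 27.3 CPM to 106, 105 and 104 CPM (1.94 ± 0.049). MAX rose by 0.90 and MYC by 0.67. Among 15 bHLH-PAS and clock genes 9 rose and 4 fell (7 and 5 by size alone), with AHR, the dioxin receptor (1.44), EPAS1, a hypoxia-inducible factor (1.07), and CRY1, a clock repressor (1.04), on the rising side and PER2 (-0.44) on the falling side. Of 16 SMAD, TEAD and RUNX genes 10 rose and 3 fell, or 6 and 6 by size alone. SMAD3, which carries the TGF-beta signal, rose by 1.02, and SMAD6, an inhibitor of BMP signalling, fell by 1.28. Among 11 STAT and IRF genes 4 rose and 4 fell (3 and 7 by size alone), with none past 1 log2 unit; STAT6, the mediator of IL-4 signalling, rose by 0.74.

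Families that hold hepatocyte identity gave a mixed picture. Of 36 nuclear receptors 15 rose and 14 fell, and with library size alone as the scale 13 rose and 17 fell. NR4A1, an orphan receptor of the immediate-early class, went from 16.6, 17.8 and 16.6 CPM to 143, 144 and 152 CPM (3.11 ± 0.051). NR1H4, the bile acid receptor FXR, went from 135, 137 and 140 CPM to 41.5, 41.5 and 43.1 CPM (-1.71 ± 0.043, adjusted p = 1.82e-26). Its target NR0B2, the repressor SHP, moved the other way, from 46.3, 43.6 and 42.6 CPM to 197, 201 and 227 CPM (2.24 ± 0.057). None of these 3 genes had overlapping groups. RORA rose by 1.26, THRB, a thyroid hormone receptor, fell by 0.75, and HNF4A, the central liver receptor, fell by 0.23.

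Forkhead factors counted 16 risers and 4 fallers among 23 tested (median 0.49). FOXA1, a pioneer factor of liver chromatin, went from 98.7, 92.8 and 98.2 CPM to 40.1, 39.6 and 39.5 CPM (-1.28 ± 0.047), and FOXM1, a driver of mitotic genes, fell by 1.24. FOXC1 (1.39), FOXN2 (1.21) and FOXO3, a factor held in check by insulin signalling (0.92 ± 0.046), rose. Of 7 liver homeodomain genes 2 rose and 5 fell, the falls including HHEX (-1.06) and ONECUT1 (-0.68), whereas ONECUT2 rose by 0.83. Of 6 GATA genes none rose and 5 fell, among them GATA4 (from 84.9 to 92.2 CPM in the controls to 53.2 to 55.4 CPM, -0.70) and GATA6 (-0.57). HOX genes were low, with a median level of 0.91 CPM; none of 11 tested rose and 3 fell, HOXA3 by 0.99. Among 10 SOX genes 3 rose and 5 fell, and SOX4 rose by 1.74.

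E2F factors, which drive the genes of DNA synthesis, had 2 risers and 7 fallers among 10 tested (median -0.60). E2F8 went from 29.1, 24.6 and 25.3 CPM to 4.86, 5.11 and 4.21 CPM (-2.48 ± 0.096, adjusted p = 2.71e-21). E2F2 went from 19.3, 19.2 and 19.4 CPM to 4.68, 3.67 and 4.83 CPM (-2.14 ± 0.10). E2F3 and E2F6 rose by 0.45 and 0.41.

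Within the ATF, CREB and C/EBP family 12 of 25 rose and 8 fell (10 and 10 by size alone), and the 2 main liver C/EBP factors parted. CEBPB, the acute-phase and stress isoform, was at 69.8, 82.9 and 84.8 CPM in the controls and at 222, 246 and 281 CPM at 30 µM (1.66 ± 0.11, adjusted p = 1.13e-05). CEBPA, which keeps hepatocytes differentiated, went from 202, 220 and 226 CPM to 101, 106 and 119 CPM (-0.99 ± 0.076, adjusted p = 3.04e-06). The groups of neither gene overlapped. DDIT3, a stress-induced relative, rose by 1.28 and ATF4 by 0.42, while TEF fell by 1.12 and XBP1 by 0.24.

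The CNC and BACH family showed another such split, with 5 of 6 rising. NFE2L2, the factor of the antioxidant response known as NRF2, went from 176 CPM in each control to 337, 334 and 326 CPM (0.92 ± 0.034), and its competitor BACH1 rose by 0.89. NFE2, a blood-lineage relative, was the steepest fall among the named transcription factors, from 12.8, 14.6 and 13.4 CPM to 1.94, 1.53 and 1.11 CPM (-3.16 ± 0.15, adjusted p = 4.10e-19). Of 8 MiT, USF and SREBF genes 3 rose and 3 fell (3 and 5 by size alone): TFE3, a factor of lysosome genes, went from 50.8 to 55.5 CPM in the controls to 107 to 112 CPM (1.06 ± 0.045), its relative TFEB from 24.5 to 26.7 CPM down to 14.6 to 16.1 CPM (-0.73 ± 0.072), and SREBF2, the factor of sterol synthesis, rose by 0.39.

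**Figure D2:**
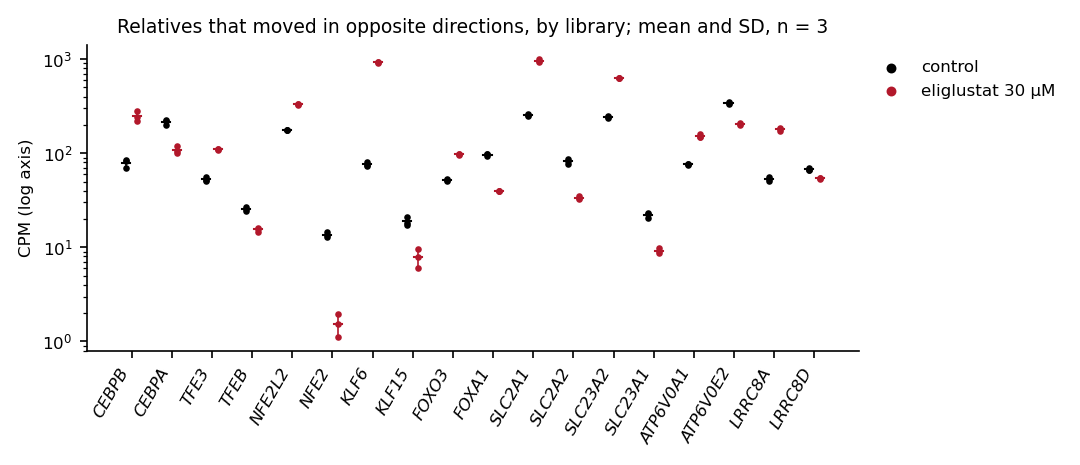
Points are single libraries in CPM (log y axis), black for the 3 controls and red for the 3 libraries at 30 µM, with the mean and SD as bars, for genes set in pairs of relatives; levels are to be read within a gene, since CPM does not correct for gene length. In each pair the first gene rose and the second fell, for example CEBPB against CEBPA, SLC2A1 against SLC2A2 and SLC23A2 against SLC23A1, and no gene has overlapping groups.

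Of the 418 ZNF-named genes tested, 7 rose (1.67%) and 35 fell (8.37%) by at least 1 log2 unit, beside 8.11% and 7.33% of protein-coding genes. Their median level was lower, 10.7 CPM against 29.8 CPM for protein-coding genes. ZNF697 (1.71), ZNF746 (1.09) and ZNF703 (1.07) rose most among those that met the level required for naming. ZNF519 went from 12.6, 12.7 and 12.8 CPM to 3.61, 3.34 and 3.55 CPM (-1.86 ± 0.12), and ZNF273 and ZNF695 fell by 1.69 and 1.58. Many of these genes are close copies in clusters, so reads may be split between them.

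Secreted factors included many large rises. Of 502 listed genes in 16 families 206 were tested, of which 93 rose and 50 fell. By at least 1 log2 unit 55 rose, which is 26.7% beside 8.11% of protein-coding genes. The lists were chosen with earlier results of these data known, and the cytokine list was narrowed after the data were seen. The shares therefore only describe these lists. Their median log2 change was 0.21. With library size alone, 74 rose and 69 fell.

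Chemokines, which call leukocytes, had 7 risers and none falling among 10 tested, and 3 did not pass. CXCL8, the neutrophil attractant interleukin-8, was at 0.538, 0.947 and 0.359 CPM in the controls and at 50.2, 49.2 and 49.8 CPM at 30 µM (6.38 ± 0.14, adjusted p = 3.77e-28). CCL20 went from 4.34, 5.32 and 5.79 CPM to 111, 112 and 104 CPM (4.40 ± 0.098). Neither had a control near any treated library. CXCL16 rose by 1.43.

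The 150 bases before the CXCL8 start are shown because the gene had the largest rise but 1 among the named genes (GRCh38.p14, plus strand, chr4:73740419-73740568). Capitals mark, in order, an AP-1 motif TGANTCA and an NF-kB motif GGNNTTTCC.
CXCL8: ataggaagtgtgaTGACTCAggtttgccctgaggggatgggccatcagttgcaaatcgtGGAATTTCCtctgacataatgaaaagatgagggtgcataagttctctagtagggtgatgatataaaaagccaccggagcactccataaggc
The AP-1 motif begins 137 and the NF-kB motif 91 bases before the RefSeq start. In the 250 bases before the start, searched on both strands, 6.60% of all 27305 promoters held the AP-1 motif and 5.48% the NF-kB motif. Neither match was tested as a binding site.

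Interleukins, interferons and related cytokines had 8 risers and 2 fallers among 16 tested. IL11, a cytokine of the IL-6 family, went from 2.80, 1.98 and 1.80 CPM to 45.2, 47.0 and 48.8 CPM (4.41 ± 0.11). LIF, which signals through the same shared receptor chain, went from 12.2, 10.7 and 10.5 CPM to 128, 120 and 132 CPM (3.50 ± 0.063), and CSF1, the macrophage growth factor, rose by 2.87. EPO, the hormone of red cell production that HepG2 is known to make, went the other way, from 9.79, 11.0 and 9.02 CPM to 1.85, 2.27 and 1.45 CPM (-2.41 ± 0.16, adjusted p = 2.88e-15). Of 7 TNF superfamily ligands 4 rose and 1 fell; TNFSF14 rose by 2.85.

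All 6 EGF family ligands tested rose, by 0.38 to 3.27 log2 units. AREG (2.90), EREG (2.85) and HBEGF (2.40), ligands that are shed from the cell surface to activate EGF receptors, had 1.76 to 5.17 CPM in the controls and 9.68 to 34.1 CPM at 30 µM across the 3 genes. PDGFA rose by 2.18 and PDGFB by 1.50, within a family of growth factors for vessels and mesenchyme in which 6 of 16 rose and 3 fell. Under library size alone that family had 4 rising and 5 falling. Of 8 WNT ligands and antagonists 3 rose and 3 fell (2 and 3 by size alone), WNT11 by 1.17 upward.

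In the TGF-beta superfamily 5 of 19 ligands rose and 6 fell, or 4 and 8 by size alone. GDF15, a stress-induced hormone that curbs appetite, went from 169, 160 and 152 CPM to 2917, 2899 and 3061 CPM (4.21 ± 0.040). TGFB1 went from 80.3, 78.8 and 80.5 CPM to 280, 284 and 303 CPM (1.85 ± 0.039), while INHBC, an activin subunit made in liver, fell by 0.81. Among 10 antagonists 4 rose and 2 fell (4 and 3 by size alone): FST, which traps activins, went from 10.1, 12.5 and 12.2 CPM to 179, 168 and 165 CPM (3.88 ± 0.062), its relative FSTL3 rose by 1.90, and CHRD, a BMP antagonist, fell by 0.38.

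Matricellular factors included large rises. CCN1 went from 12.3, 10.6 and 10.8 CPM to 148, 152 and 152 CPM (3.74 ± 0.059), and THBS1, an activator of latent TGF-beta, from 25.1, 25.2 and 22.5 CPM to 138, 136 and 135 CPM (2.49 ± 0.050). The spread within each group was small beside these gaps. CCN2 rose by 1.78. Among CCN, semaphorin, slit and related genes 11 of 17 rose and 2 fell (6 and 5 by size alone), and among 19 metalloproteases and TIMPs 10 rose and 3 fell, with the protease inhibitors TIMP1 (2.28) and TIMP2 (2.22) among the risers.

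Among 21 serpins 7 rose and 9 fell, or 8 and 7 with median-ratio size factors and 4 and 13 by size alone. SERPINB8 (3.73), an intracellular serpin, and SERPINE2 (1.60), a protease nexin, rose. The plasma proteins SERPINA7, which carries thyroid hormone (from 37.7 to 39.2 CPM in the controls to 17.0 to 17.6 CPM, -1.14 ± 0.063), and SERPINA10, an inhibitor of factor Xa (-0.92), fell, as did SERPINH1, the collagen chaperone (-0.83).

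Among 16 inter-alpha-trypsin and plasma carrier genes 5 rose and 8 fell. HPX, which binds haem, went from 18.3, 20.1 and 18.6 CPM to 7.50, 6.89 and 7.97 CPM (-1.35 ± 0.095), and HP, which binds haemoglobin, from 74.2, 77.8 and 71.4 CPM to 30.5, 32.5 and 27.9 CPM (-1.30 ± 0.054). HP has a close copy, so its reads may be split. Groups of both genes were apart. AFP, the fetal albumin relative, fell by 0.52. TTR, a carrier of thyroid hormone and retinol, rose by 1.25 and AMBP by 0.60. CPB2, which protects clots from plasmin, went from 229, 231 and 233 CPM to 93.8, 93.3 and 92.4 CPM (-1.31 ± 0.036).

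Insulin-like factors and hepatokines included the largest rise of all named genes. IGFBP1, which binds insulin-like growth factors and is normally held down by insulin, had 6.74, 7.35 and 13.9 CPM in the controls and 1202, 1199 and 1231 CPM at 30 µM (7.00 ± 0.21, adjusted p = 1.44e-07). IGF2 fell by 0.36. Of 28 hepatokines and peptide hormones 13 rose (46.4%) and 8 fell (28.6%), beside 36.1% and 35.5% of protein-coding genes. With library size alone 10 rose and 12 fell. METRNL, a meteorin-like hormone, went from 1.04, 0.992 and 0.755 CPM to 20.3, 18.7 and 22.3 CPM (4.46 ± 0.15), and ADM, a vasodilator, rose by 1.17. KNG1, the precursor of bradykinin (-1.15), FAM3B (-0.78) and ANGPTL8, a regulator of lipoprotein lipase (-0.56), fell.

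**Figure D3:**
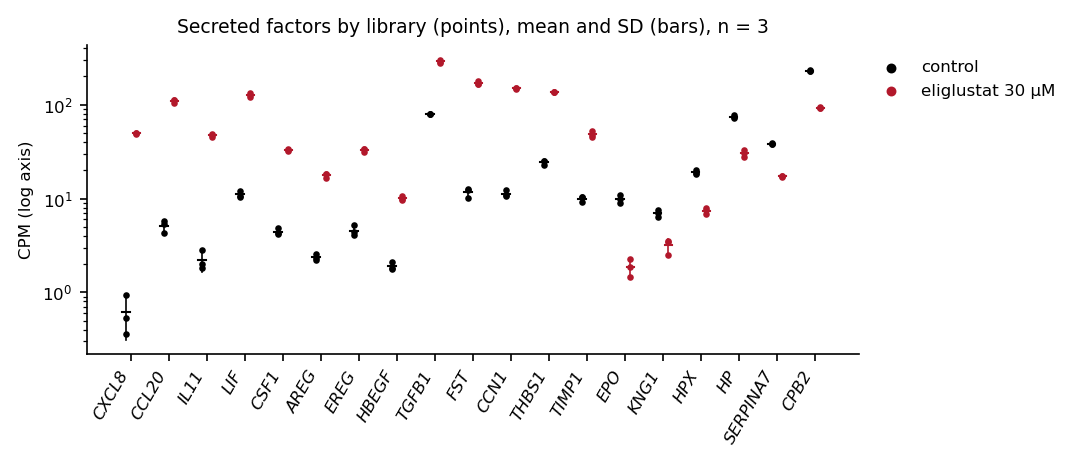
Points are the 6 libraries in CPM (log y axis) for 19 secreted factors, black for controls and red for 30 µM eliglustat, with the mean and SD of each group as bars. The 13 genes at the left are higher in all 3 treated libraries, from CXCL8 at 0.359 to 0.947 against 49.2 to 50.2 CPM, and the 6 at the right, EPO to CPB2, are lower in all 3.

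Transporters and channels were examined in 15 families. Of 719 listed genes 409 were tested; 174 rose and 119 fell, with a median log2 change of 0.09. This lean depended on the scale, since with library size alone 130 rose and 179 fell. In either direction 71.6% passed on the main scale, beside 71.7% of protein-coding genes. Rises of at least 1 log2 unit numbered 47 (11.5%) and such falls 23 (5.62%), beside 8.11% and 7.33% of protein-coding genes.

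Amino acid carriers had 17 risers and 8 fallers among 29 tested (median 0.36). SLC38A2, a sodium-coupled carrier of small neutral amino acids that is induced when they run short, was at 691, 708 and 731 CPM in the controls and at 3250, 3287 and 3133 CPM at 30 µM (2.18 ± 0.034, adjusted p = 2.40e-32). SLC43A2 (1.40) and the glutamate carrier SLC1A2 (1.38) also rose. The falls of the family reached at most 0.40, that of SLC6A14; SLC1A4 fell by 0.38.

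Of 23 sugar carriers 7 rose (30.4%) and 8 fell (34.8%), beside 36.1% and 35.5% of protein-coding genes. By size alone 7 rose and 13 fell. SLC2A1, the widespread glucose transporter GLUT1, went from 252, 260 and 249 CPM to 966, 931 and 993 CPM (1.93 ± 0.037, adjusted p = 9.22e-29). SLC2A2, the hepatocyte's own GLUT2, went from 76.7, 85.8 and 82.6 CPM to 34.9, 33.8 and 32.3 CPM (-1.28 ± 0.051, adjusted p = 5.32e-21). The 2 isoforms changed in opposite directions in every treated library relative to every control. SLC2A6 rose by 1.71. SLC5A9, a sodium-coupled sugar carrier, fell by 1.46 and SLC37A4, the glucose-6-phosphate carrier of the endoplasmic reticulum, by 0.97.

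The vitamin C carriers also moved in opposite directions. SLC23A2 went from 238, 246 and 244 CPM to 627, 626 and 629 CPM (1.37 ± 0.031), and SLC23A1 from 22.5, 20.6 and 23.0 CPM to 9.91, 8.66 and 9.17 CPM (-1.25 ± 0.082). Their family of nucleotide, nucleoside and vitamin carriers had 17 of 43 rising (39.5%) and 16 falling (37.2%), near the protein-coding shares of 36.1% and 35.5%. By size alone 13 rose and 23 fell. SLC29A4, a monoamine carrier, fell by 1.18.

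Among carboxylate carriers 9 of 19 rose and 5 fell, or 8 and 8 by size alone. SLC16A5 rose by 2.00 and SLC16A6 by 1.79, and the dicarboxylate and citrate carriers SLC13A3 and SLC13A5 fell by 0.94 and 0.39. Organic anion and cation carriers, which bring drugs and bile constituents into the hepatocyte, had 7 risers and 9 fallers among 19 (5 and 10 by size alone). SLC22A7, an organic anion carrier, went from 74.4, 81.6 and 81.2 CPM to 27.1, 28.2 and 26.5 CPM (-1.54 ± 0.051), and SLCO2B1, a carrier of steroid conjugates, from 90.9, 103 and 100 CPM to 38.6, 35.1 and 35.3 CPM (-1.43 ± 0.052). SLC22A31 fell by 1.20. The basolateral bile acid exporter subunit SLC51B rose by 1.12 and SLC10A3 by 1.00.

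Metal carriers had 17 risers and 9 fallers among 35, or 10 and 15 with library size alone. SLC40A1, ferroportin, the exporter of iron, went from 13.4, 14.9 and 15.4 CPM to 75.0, 72.9 and 69.5 CPM (2.31 ± 0.068, adjusted p = 4.84e-24). SLC41A2, a magnesium carrier, rose by 2.06. SLC30A10, an exporter of manganese, went from 95.1, 91.5 and 98.7 CPM to 39.9, 39.4 and 37.5 CPM (-1.29 ± 0.046). Groups of these genes did not overlap. Among ion-coupled carriers 8 of 17 rose and 3 fell (7 and 5 by size alone), with the phosphate carriers SLC20A1 (1.39) and SLC20A2 (0.63) both rising.

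Of mitochondrial SLC25 carriers 10 of 43 rose, 13 fell and 20 did not pass the test, and by size alone 5 rose and 22 fell. SLC25A51, the NAD carrier, rose by 1.02, and SLC25A48 (-1.78), SLC25A10, the dicarboxylate carrier (-1.25), and SLC25A42, the coenzyme A carrier (-0.97), fell. In the list of fatty acid and lipid carriers 9 of 26 rose and 11 fell (5 and 15 by size alone). MFSD6 rose by 2.17 and MFSD12, known as a lysosomal cysteine carrier, by 1.04.

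ABC transporters had 10 risers and 14 fallers among 33 tested, or 9 and 22 by size alone. ABCC2, the canalicular exporter of bilirubin conjugates, went from 774, 787 and 777 CPM to 1663, 1622 and 1588 CPM (1.06 ± 0.030, adjusted p = 7.38e-25). ABCB1, the multidrug exporter P-glycoprotein, went from 127, 127 and 126 CPM to 260, 262 and 258 CPM (1.04 ± 0.039). ABCA5 rose by 1.35. ABCG8, a sterol exporter subunit, fell by 0.78 and ABCD3, a peroxisomal carrier, by 0.77.

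Of 43 P-type and V-type ATPase genes 27 rose and 8 fell, or 19 and 12 by size alone. The subunits of the proton pump did not move as a block. ATP6V0A1 went from 74.3 to 77.2 CPM in the controls to 150 to 158 CPM (1.01 ± 0.044) and ATP6V0B rose by 0.88, whereas ATP6V0E2 fell from 330 to 347 CPM to 201 to 212 CPM (-0.72 ± 0.035). ATP13A3, linked to polyamine transport, rose by 0.88.

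Water and ion channels included some of the largest changes among transporters. AQP3, a channel for water and glycerol, went from 1.26, 1.08 and 1.19 CPM to 25.6, 26.3 and 28.4 CPM (4.50 ± 0.12, adjusted p = 3.07e-25), and AQP11 fell by 0.82. SCN1A, a neuronal sodium channel subunit, went from 34.1, 32.2 and 33.4 CPM to 3.15, 4.04 and 3.84 CPM (-3.17 ± 0.10, adjusted p = 4.78e-23), and CACNB4, a calcium channel subunit, from 82.9, 81.4 and 80.0 CPM to 20.5, 19.9 and 17.6 CPM (-2.07 ± 0.062). Their family had 15 risers and 6 fallers among 33 (13 and 8 by size alone), with CACNA1H, a T-type calcium channel (2.65), and TRPV2, a cation channel (2.02), among the risers. Of 22 chloride channel genes 12 rose and 3 fell, or 7 and 8 with library size alone. LRRC8A, the obligate subunit of the volume-regulated anion channel, went from 52.9, 55.5 and 50.8 CPM to 173, 182 and 185 CPM (1.76 ± 0.045), its partner LRRC8E rose by 1.15, and LRRC8D fell by 0.32. CLIC1 rose by 1.42. Among 19 potassium channels 7 rose (36.8%) and 4 fell (21.1%), beside 36.1% and 35.5% of protein-coding genes. By size alone 4 rose and 5 fell. KCNJ10 fell by 1.09.

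**Figure D4:**
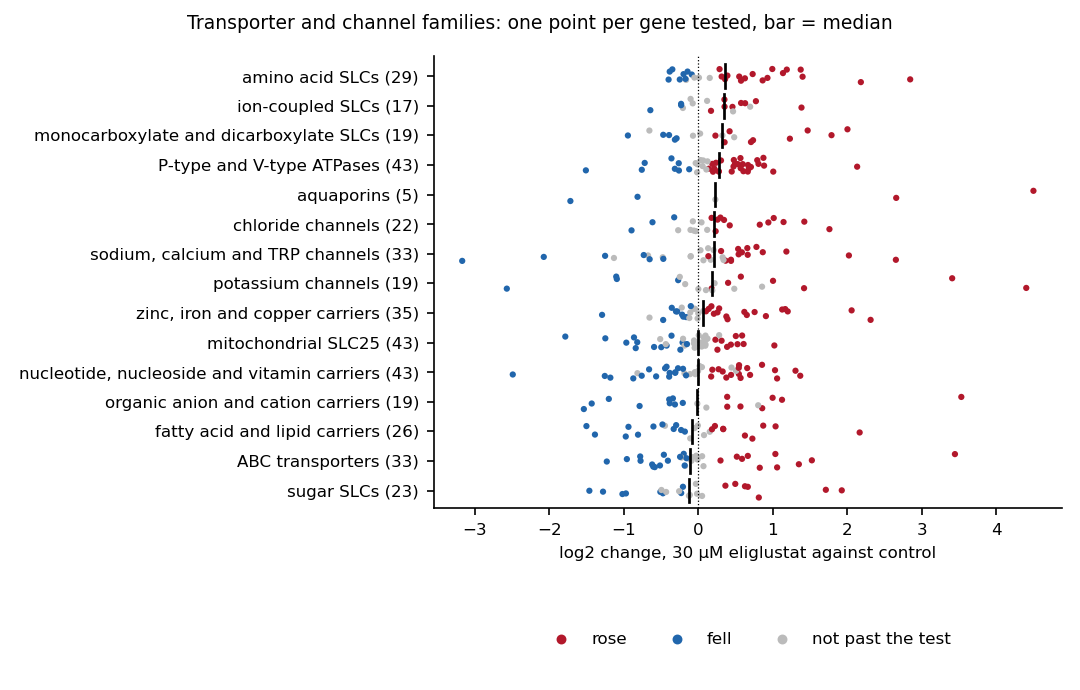
Each point is 1 tested transporter or channel gene, placed by its log2 change at 30 µM against control (x axis) in the row of its family (tested genes in parentheses, families with at least 3); red points rose, blue points fell, grey points did not pass, and the black bar is the median. Medians run only from -0.12 for sugar carriers to 0.36 for amino acid carriers, so the larger changes are those of single genes such as AQP3 at 4.50 and SCN1A at -3.17.

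Long non-coding genes fell more often than they rose. Of 14723 listed 2567 were tested. Of these 370 rose (14.4%) and 679 fell (26.5%), both below the 29.5% and 31.3% of all genes. The median log2 change was -0.19 against -0.01 for the 12436 protein-coding genes tested. With library size alone the counts were 273 and 953. Most were near the detection limit (median 1.08 CPM), but the 369 with at least 5 CPM had 103 risers (27.9%) and 167 fallers (45.3%). Of all genes at that level 38.6% rose and 37.2% fell. Their summed share of counts nevertheless went from 1.85% ± 0.018 (SD, n = 3) to 2.02% ± 0.050 (SD, n = 3), with an exact permutation p of 0.1, which is the smallest that 3 against 3 libraries can give. The protocol describes total RNA depleted of ribosomal RNA, while the molecule field names polyA RNA, and the strand setting of the counting is not given. Genes that overlap a coding gene on the other strand are therefore uncertain. In that group of 1178 tested genes 147 rose and 342 fell, and among 926 with no coding gene over them 162 rose and 244 fell (114 and 456, and 122 and 352, by size alone).

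**Figure D5:**
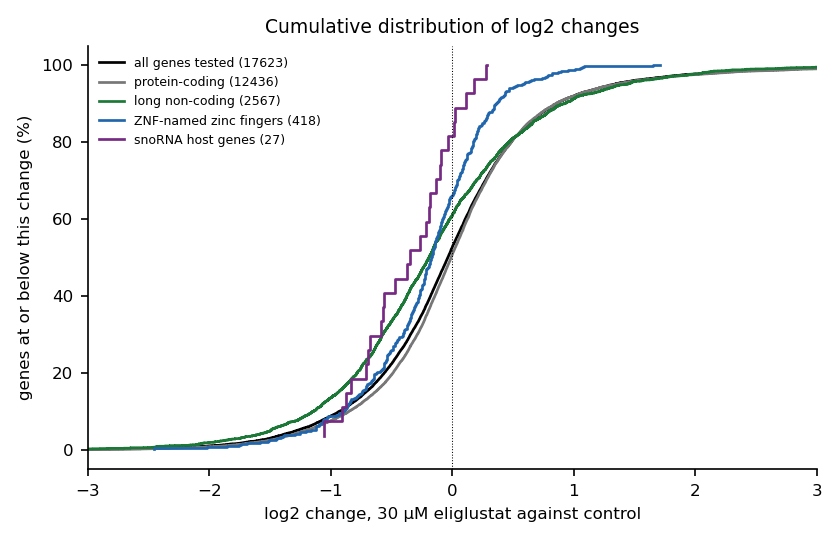
Lines give the percentage of genes (y axis) at or below each log2 change (x axis, cut at -3 and 3) for all genes tested, protein-coding genes, long non-coding genes, ZNF-named zinc fingers and snoRNA host genes, with the number of genes in parentheses. The long non-coding, ZNF and snoRNA host lines lie left of the protein-coding line around 0, with medians of -0.19, -0.17 and -0.27 against -0.01, and the long non-coding line meets it again above 1.

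By name, 49 of 246 LINC genes rose and 72 fell, 66 of 510 antisense genes rose and 162 fell, and 27 of 282 divergent transcripts rose and 86 fell. By size alone these were 37 and 104, 48 and 214, and 16 and 115. On the main scale the falling shares were 29.3%, 31.8% and 30.5%, near the 31.3% of all genes. The rising shares were 19.9%, 12.9% and 9.57%, below the 29.5% of all genes. LINC02365 rose by 1.65, and LINC02675 (-1.84) and LINC02413 (-1.74) fell. SPRY4-AS1, which lies over SPRY4, rose by 2.60, and ZFPM2-AS1 by 2.12. UICLM fell by 2.10 and BSG-AS1 by 2.36. KDM7A-DT rose by 1.68 and B4GAT1-DT fell by 1.60. PRECSIT rose by 3.19.

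Several abundant nuclear RNAs rose. NEAT1, the scaffold of paraspeckles, was at 224, 222 and 225 CPM in the controls and at 874, 876 and 827 CPM at 30 µM (1.94 ± 0.046, adjusted p = 5.16e-18). MALAT1, a nuclear speckle RNA, went from 4267, 4258 and 4425 CPM to 8221, 8468 and 8205 CPM (0.94 ± 0.030). LINC-PINT went from 28.6, 28.2 and 28.9 CPM to 123, 122 and 114 CPM (2.07 ± 0.050), and the coding gene over it, MKLN1, rose by 1.19. In none of these did a control reach a treated library. LUCAT1, a stress-responsive RNA, rose by 2.42. LINC00261, beside FOXA2, fell by 0.63. In the whole list of 16 abundant RNAs tested 8 rose and 6 fell, or 7 and 7 by size alone.

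Host genes of small nucleolar RNAs, which carry snoRNAs in their introns and guide the modification of ribosomal RNA through them, fell more often than they rose: 2 of 27 tested rose and 17 fell (median -0.27; 0 and 23 by size alone). SNHG1 went from 95.5, 98.6 and 94.8 CPM to 44.6, 47.0 and 47.2 CPM (-1.06 ± 0.048, adjusted p = 2.23e-19), and SNHG26 fell by 0.91. SNHG29 rose by 0.28, which with library size alone was 0.07 and did not pass. Structural RNAs, such as those of the signal recognition particle and the Cajal body, had 5 risers and no fallers among 14 tested (4 and 1 by size alone), all under 1 log2 unit. SCARNA5 rose by 0.66 and SCARNA7 by 0.62. RN7SL1 rose by 0.49, on 10022 to 11085 CPM in the controls and 13590 to 15927 CPM at 30 µM, and its close copies make that value uncertain.

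MicroRNA host genes had 5 risers and 9 fallers among 23 tested. Mature microRNAs were not measured; the sequences below, from RefSeq (GRCh38.p14), show microRNAs of 5 of the 14 hosts that passed, picked from the hosts that the naming rule gave, with the seed, bases 2 to 8, in capitals.
miR-23a-3p (MIR23AHG): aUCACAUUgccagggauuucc
miR-27a-3p (MIR23AHG): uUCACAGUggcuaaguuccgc
miR-24-3p (MIR23AHG): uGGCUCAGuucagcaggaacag
miR-221-3p (MIR222HG): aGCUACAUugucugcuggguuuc
miR-222-3p (MIR222HG): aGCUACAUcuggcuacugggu
miR-181a-5p (MIR181A1HG): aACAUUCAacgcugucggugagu
miR-181b-5p (MIR181A1HG): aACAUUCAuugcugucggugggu
miR-22-3p (MIR22HG): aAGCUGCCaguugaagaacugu
miR-34a-5p (MIR34AHG): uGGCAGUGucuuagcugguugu
The pair in MIR222HG shares one seed, as does the pair in MIR181A1HG.

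MIR23AHG (chromosome 19, 13823880 to 13842928, minus strand) went from 0.789, 1.17 and 0.934 CPM to 14.9, 16.0 and 15.0 CPM (4.00 ± 0.18, adjusted p = 6.63e-19). ZSWIM4, the coding gene over it on the other strand, rose by 4.06, so reads of the 2 genes cannot be told apart without the strand setting. MIR222HG (chromosome X, 45745211 to 45770274, minus strand), which no coding gene overlaps, went from 2.51, 2.21 and 3.02 CPM to 11.5, 12.3 and 11.8 CPM (2.19 ± 0.14). MIR181A1HG rose by 2.28 and MIR22HG by 1.22. MIR34AHG went from 34.1, 30.0 and 30.6 CPM to 16.5, 16.6 and 16.6 CPM (-0.93 ± 0.068), and MIR924HG fell by 1.27. Every treated library lay outside the control range for each of these hosts, which the naming rule required of those named by size of change. Outside the naming rule, and chosen after their values were seen, MIRLET7BHG, host of let-7 microRNAs, overlapped by the coding gene PRR34, was at 0.992 to 1.29 CPM in the controls and at 0.124 to 0.509 CPM at 30 µM (-1.93 ± 0.43, adjusted p = 0.000242). MIR3142HG, host of miR-146a, rose by 1.24, and MIR17HG, a cluster often amplified in cancer, fell by 0.36.

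As shares of all counts, transcription factor genes went from 2.85 to 3.05%, secreted factors from 3.62 to 4.10%, transporters from 2.77 to 3.18%, small non-coding genes from 1.42 to 1.70% and mitochondrially encoded genes from 3.45 to 5.47% (means of 3 libraries a group). Protein-coding genes as a whole went from 92.2 to 89.9%, and from 95.5 to 95.1% with the mitochondrially encoded genes left out of the total. Secreted factors went from 3.75 to 4.34% of that smaller total. In all of these the groups were apart, with an exact permutation p of 0.1 each, the smallest this design allows. Pseudogenes had 0.625 and 0.573% of counts, with an exact permutation p of 0.3.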

How the data were processed

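The deposited files hold raw counts per gene, 1 file a library. Per the submitters' processing notes, FastQC, STAR 2.7.10a, HTSeq and hg38 were used; which annotation and strand setting HTSeq had is not given. Rows for reads outside single genes, 40.6 to 44.0% of all records over the 9 libraries, were dropped. Counts were fitted with edgeR 4.0.16 (R 4.3.3; low-count filter filterByExpr, TMM scaling, robust quasi-likelihood, 1 mean per group, all 9 libraries), and p-values were Benjamini-Hochberg adjusted over the 17623 genes tested. SE is the log2 change divided by the square root of F. CPM uses TMM-scaled library sizes. Gene types and positions came from GENCODE 29 (58220 of 62703 identifiers placed), symbols from a name table (62639 matched). The script was tested on simulated data. Genes were named by size of change (past the test, groups apart, a mean level of 5 CPM or more, 2 CPM for long non-coding genes) or, in a family, by abundance; ZSWIM4 and MKLN1 were added as overlapping partners. The 63 lists and the members were chosen with earlier results of these data known, and the cytokine list was narrowed after the data were seen. Alternatives were DESeq2 1.42.0, limma 3.58.1 voom, other scalings, filters, the replicate block and leaving out libraries.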

Additional observations from a re-analysis of the deposited data

How the results depend on the processing

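Over all alternatives, 3530 to 5515 genes rose and 4874 to 8022 fell; DESeq2 gave 5140 and 4874, and median-ratio size factors 5425 and 5272. With library size alone 179 transporter genes fell in place of 119. With at least 50 counts on average, which tests fewer genes, 167 long non-coding genes rose and 355 fell. Leaving out single libraries gave 4929 to 5082 rising and 5132 to 5239 falling genes. The replicate block gave 5155 rising and 5480 falling; same-numbered libraries did not deviate together (correlations of -0.18, 0.12 and -0.20), so no pairing was taken. Without control 1, 20 µM 3 and 30 µM 3, which deviated together, 4877 rose and 5055 fell (chosen after the data were seen). Among the named genes, where an alternative tested them, only SNHG29 lost its call, with library size alone (adjusted p = 0.055), and none reversed. Most of these genes were picked for large changes, so their stability does not extend to the other genes. With library size alone 84.5% of the reported calls passed again, and 97 genes passed in the opposite direction. Depth limits long non-coding genes most of the 4 classes (median 1.08 CPM).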

Other observations

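A few genes were close to absent in one group. With at most 3 counts in every control and at least 30 in each library at 30 µM there were 5 genes, and 1 gene met the reverse rule. GEM, a small GTPase that restrains calcium channels, had 0.0359, 0.0902 and 0.108 CPM in the controls and 2.82, 3.59 and 2.73 CPM at 30 µM. BACH2, a transcriptional repressor of lymphocytes, had 0, 0.0451 and 0 CPM and then 1.62, 1.48 and 1.28 CPM. The next genes had at most 3 counts in each library of 1 group but did not reach 30 in each library of the other. KCNF1, a silent potassium channel subunit, had at most 0.108 CPM in a control and 1.03 to 2.15 CPM at 30 µM. CELF3, a splicing factor of neurons, had 1.15, 0.676 and 1.01 CPM in the controls and 0 counts in every treated library. LINC01996 had 0.721 to 1.90 CPM in the controls and 0.0412 to 0.0926 CPM at 30 µM.

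Long non-coding genes that changed were set beside the single coding gene over them on the other strand. Of 327 such genes whose partner was tested, 260 had a partner that also passed; 159 of these pairs moved in the same direction (61.2%) and 101 in opposite directions. The pairs share libraries and overlapping loci, and the strand setting is not given. No share was computed for pairs of genes that do not overlap. The 61.2% is therefore only a description and cannot be read as joint change.

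Small non-coding genes were seldom deep enough to judge: 314 of 7040 listed were tested, 43 rose and 37 fell, with upper-quartile scaling 40 rose and 44 fell, and with library size alone 31 rose and 60 fell. Pseudogenes had 119 risers and 161 fallers among 1316 tested, or 69 and 248 with library size alone. Of 26 mitochondrially encoded genes tested 20 rose and none fell.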
